A study of Mus musculus with 28 samples.

Results

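The comparison described here set livers of Aag null mice taken 24 h after methyl methanesulfonate (MMS) against livers of Aag null mice taken 6 h after MMS, to see which transcripts went down or up between these times. Its members were the 7 arrays that the sample labels assign to these groups, 4 at 24 h and 3 at 6 h, of 28 arrays in the series. All 7 carry the Aag deletion and all 7 received MMS, and untreated livers do not enter the comparison. Aag, encoded by Mpg in the mouse, is the glycosylase that cuts methylated bases such as 3-methyladenine out of DNA, and MMS is a direct-acting agent that methylates DNA. Total RNA of whole liver was hybridised to the Affymetrix MG-U74Av2 mouse array, and all levels below are log2 signals. The same interval in wild-type (WT) mice, 2 arrays at 24 h and 2 at 6 h, shares no array with it and is given for comparison. The labels give no dose, sex, age, strain, route or hour of the day. They do not say that replicates came from separate animals, so p-values measure a spread between arrays that may be technical. That spread was pooled within groups over all 28 arrays, for the WT comparison as well, and the number of arrays limits the precision.

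A gene was called where its limma p-value, adjusted by the Benjamini-Hochberg method over all 5487 genes tested, was under 0.05, and fell or rose is written only of called genes. Differences are 24 h minus 6 h on the log2 scale, so a negative value means lower at 24 h, each with its standard error (SE) from that fit. Mpg was dim in every array, at 2.36, 2.27, 2.60 and 2.38 in Aag 24 h and 2.42, 2.42 and 2.41 in Aag 6 h, and was not tested. In WT liver it was 2.68 and 2.63 at 24 h and 2.81 and 2.38 at 6 h, so the genotypes overlapped, and no source used here says whether its probes lie in the deleted part.

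Several arrays stood apart, and values without them are given beside the main results. Aag 24 h replicates 1 and 2 had the pattern of female liver, with the female-typical Cyp2b9 at 7.73 and 8.22, against 3.65 and 3.27 in replicates 3 and 4 and 2.89 to 3.38 in Aag 6 h. Aag 6 h replicate 1 had dim hybridization controls, the foreign transcripts spiked into every sample, with a mean of 6.59 over 9 probe sets. WT 6 h replicate 1 was alike at 6.42, and the other 19 treated arrays lay from 7.19 to 9.22. Those 2 arrays of different genotypes correlated at 0.984 across 5487 genes. Aag 6 h replicate 1 correlated at 0.914 and 0.934 with the other arrays of its own group, which correlated at 0.985 with each other, while pairs of Aag 24 h arrays ran from 0.975 to 0.992. RNA integrity, read as the 3′ minus the 5′ probe set of Gapdh, lay from -0.29 to 0.13 in the 7 arrays. Hepatocyte markers were bright at both times, with a summed level of 14.74 to 14.91 in Aag 24 h and 14.68 to 14.81 in Aag 6 h, and albumin (Alb) was 12.23 to 12.62 in Aag 24 h and 12.10 to 12.46 in Aag 6 h. Their 14 tested members had a median difference of 0.05, 6 lower and 8 higher, with 0 called and 0 at an unadjusted p under 0.05.

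Between 6 and 24 h, 5 genes fell and 3 rose in Aag null liver. The endoplasmic reticulum chaperone Hspa5 fell 3.38-fold, and with it fell Slc35b1, which exchanges ATP and ADP across the membrane of that organelle. The stress-induced transcription factor Atf5, the autophagy receptor Sqstm1 and Cdk2ap2, which binds the cell-cycle kinase CDK2, also fell. The drug-metabolising cytochrome P450 Cyp2b10 rose 2.69-fold, and Ngef, a guanine nucleotide exchange factor, and Lpp, a LIM-domain protein of focal adhesions, rose by less. These 8 genes were 0.146% of those tested, 0.0911% lower and 0.0547% higher. At an unadjusted p under 0.05, 225 genes were lower (4.1%) and 123 higher (2.24%). The arrays of the groups did not overlap for 285 genes lower at 24 h (5.19%) and 278 higher (5.07%). The median difference over all tested genes was 0.04, with 2274 lower and 3213 higher, the background for the counts of list members below. No gene was called by limma without Aag 24 h replicate 1, Aag 24 h replicate 2, Aag 6 h replicate 1 or Aag 6 h replicate 3, each left out alone, with 248, 238, 205 and 399 genes at an unadjusted p under 0.05. None was called with the female-typical pattern as a term either, with 217 genes at that level. Of the 20 alternative settings run, the 8 genes were called in 4 (Lpp) to 10 (Sqstm1). All 8 kept their sign, which leaving out arrays could not change, since the groups did not overlap for any of them.

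The unfolded protein response is the signalling system by which cells adjust the folding capacity of the endoplasmic reticulum. Unfolded proteins draw the chaperone Hspa5 (BiP) away from the membrane sensors, of which ATF6 is cut to release a transcription factor, IRE1 splices the mRNA of the factor XBP1, and PERK slows translation. These factors raise chaperones, disulfide isomerases and components that return misfolded proteins to the cytosol for degradation, a load that is heavy in hepatocytes because they secrete most plasma proteins. Many of these genes carry the endoplasmic reticulum stress element, which ATF6 and XBP1 read together with NF-Y. Its letters are CCAAT, 9 bases of any kind and CCACG, and those of a variant are ATTGG, 1 base of any kind and CCACG. The 250 bases before the start of each gene (RefSeq, GRCm38.p6, 32851 windows of 27025 genes) were searched on both strands for these letters, a search added after the results were known. The first motif lay in 0.113% of all windows and in 45.5% of the 22 windows of the unfolded protein response list, from 10 of its 21 genes with a window. The variant lay in 0.0304% of all windows and, in this list, in that of Herpud1. Of the 8 called genes, Hspa5 alone held the first motif and none held the variant. A match is a description of the letters and not a shown binding site.

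The Hspa5 window is printed because it belongs to the gene with the lowest p-value in the comparison. It is 5′ to 3′ on the strand of the gene, in lower case with the motif in capitals.
Hspa5 upstream window, chr2:34771840-34772089 (+ strand), motif ending 46 bases before the gene start: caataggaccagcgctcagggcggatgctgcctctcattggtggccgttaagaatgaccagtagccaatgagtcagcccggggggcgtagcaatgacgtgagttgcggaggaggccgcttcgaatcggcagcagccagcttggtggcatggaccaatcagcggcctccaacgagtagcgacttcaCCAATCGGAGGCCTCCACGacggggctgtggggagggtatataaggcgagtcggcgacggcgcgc

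Windows of 20 bases on each side of the motif follow for other list members that the array measured, to show the letters side by side in genes with large and small differences. Calr among them was too dim to test, at 2.00 to 2.37 in Aag 24 h and Aag 6 h, so its small difference is not a measured lack of change. Capitals again mark the motif, and where it reads CGTGG first it lies on the opposite strand.
Creld2, chr15:88819500-88819558 (+ strand), motif ending 107 bases before the gene start: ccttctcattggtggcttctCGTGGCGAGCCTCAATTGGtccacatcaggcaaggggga
Ero1b, chr13:12565662-12565720 (+ strand), motif ending 182 bases before the gene start: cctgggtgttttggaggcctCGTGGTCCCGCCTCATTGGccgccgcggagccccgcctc
Dnajc3, chr14:118937807-118937865 (+ strand), motif ending 86 bases before the gene start: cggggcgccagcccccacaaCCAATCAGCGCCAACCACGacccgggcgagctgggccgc
Pdia6, chr12:17266471-17266529 (+ strand), motif ending 79 bases before the gene start: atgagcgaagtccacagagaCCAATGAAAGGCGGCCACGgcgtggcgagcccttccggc
Hsp90b1, distal match, chr10:86705618-86705676 (- strand), motif ending 193 bases before the gene start: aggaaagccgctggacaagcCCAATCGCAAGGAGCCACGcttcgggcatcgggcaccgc
Hsp90b1, proximal match, chr10:86705513-86705571 (- strand), motif ending 88 bases before the gene start: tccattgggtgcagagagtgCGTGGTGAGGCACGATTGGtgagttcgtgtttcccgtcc
Herpud1, chr8:94386357-94386407 (+ strand), motif ending 41 bases before the gene start: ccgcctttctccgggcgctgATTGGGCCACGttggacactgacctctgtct
Canx, chr11:50325780-50325838 (- strand), motif ending 126 bases before the gene start: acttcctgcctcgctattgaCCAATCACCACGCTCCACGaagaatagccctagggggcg
Calr, chr8:84847055-84847113 (- strand), motif ending 143 bases before the gene start: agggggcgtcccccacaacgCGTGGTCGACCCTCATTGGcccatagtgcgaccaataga

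Hspa5 was 6.39, 6.07, 6.86 and 7.02 in Aag 24 h and 9.08, 7.61 and 8.33 in Aag 6 h. Every 24 h array was below every 6 h array, and the lowest 24 h values came from the female-typical arrays while the highest 6 h value came from the low-control array. The difference was -1.76 (SE 0.30, adjusted p = 0.0191), with means of 6.58 ± 0.43 (SD, n = 4) at 24 h and 8.34 ± 0.74 (SD, n = 3) at 6 h. It was -1.38 (adjusted p = 0.0957) without the low-control arrays, -1.40 (adjusted p = 0.441) without the female-typical arrays and -1.03 without both. At the other times Hspa5 was 7.86 and 7.51 at 12 h, 7.25, 7.71 and 7.23 at 48 h, and 7.17, 8.34, 7.98 and 7.42 in untreated Aag liver. The 4 arrays at 24 h therefore lay below all 9 of these.

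Slc35b1 was 6.37, 6.33, 6.71 and 6.86 in Aag 24 h and 7.57, 7.05 and 7.50 in Aag 6 h, without overlap, and fell by 0.81 (SE 0.15, adjusted p = 0.0356). Its 12 h arrays, 7.53 and 7.19, still lay within the 6 h range, and its 48 h arrays, 6.69, 6.62 and 6.72, lay within the 24 h range. Its difference was -0.71 without the low-control arrays, -0.59 without the female-typical arrays and -0.49 without both, and it was called in none of these fits. Sqstm1, which links ubiquitin-tagged cargo to the autophagosome and holds KEAP1 away from NRF2, showed the tightest groups of the called genes. It was 6.89, 6.85, 6.92 and 6.99 in Aag 24 h and 7.59, 7.62 and 7.61 in Aag 6 h, with a difference of -0.70 (SE 0.12, adjusted p = 0.0191). The low-control array did not stand out for Sqstm1, and the difference was -0.70 (adjusted p = 0.0762) without the low-control arrays, -0.65 (adjusted p = 0.375) without the female-typical arrays and -0.66 without both. Its levels at 12 h (7.14 and 6.93) were already below every 6 h array. Cdk2ap2 was 6.12, 6.08, 6.24 and 6.29 in Aag 24 h and 7.03, 6.73 and 6.83 in Aag 6 h, a fall of 0.68 (SE 0.13, adjusted p = 0.0360). It was -0.59 without the low-control arrays, -0.59 without the female-typical arrays and -0.51 without both, again not called.

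Atf5 was 4.97, 5.12, 5.02 and 4.72 in Aag 24 h and 5.80, 6.31 and 5.81 in Aag 6 h, a fall of 1.02 (SE 0.20, adjusted p = 0.0356). Here the highest 6 h array was replicate 2, not the low-control array. Its difference was -1.11 (adjusted p = 0.0762) without the low-control arrays, -1.11 (adjusted p = 0.375) without the female-typical arrays and -1.19 without both. Atf5 went on to 4.84, 4.32 and 4.52 at 48 h, below the 5.15, 6.09, 6.01 and 5.44 of untreated Aag liver.

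Cyp2b10, which the nuclear receptor CAR induces in liver, was 6.55, 7.21, 6.28 and 6.47 in Aag 24 h and 4.93, 5.37 and 5.31 in Aag 6 h. It rose by 1.43 (SE 0.27, adjusted p = 0.0356), and the array with 7.21 was one of the female-typical pair. Without the female-typical arrays the difference was 1.17 (adjusted p = 0.433), and without both sets of arrays that stood apart it was 1.03. At 12 h, Cyp2b10 was 5.46 and 5.58, close to its 6 h level, and at 48 h it was 6.83, 6.22 and 6.82, close to its 24 h level. Ngef was 7.24, 7.16, 6.83 and 6.85 in Aag 24 h and 6.02, 6.33 and 6.41 in Aag 6 h, a rise of 0.77 (SE 0.15, adjusted p = 0.0360). Its 12 h arrays, 6.71 and 6.74, lay between the groups. Lpp was 6.23, 6.08, 5.91 and 5.84 in Aag 24 h and 5.51, 5.41 and 5.58 in Aag 6 h, a rise of 0.51 (SE 0.11, adjusted p = 0.0473). For both of these genes the female-typical arrays were the highest 24 h arrays, and without them the differences were 0.59 for Ngef and 0.38 for Lpp.

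**Figure D1:**
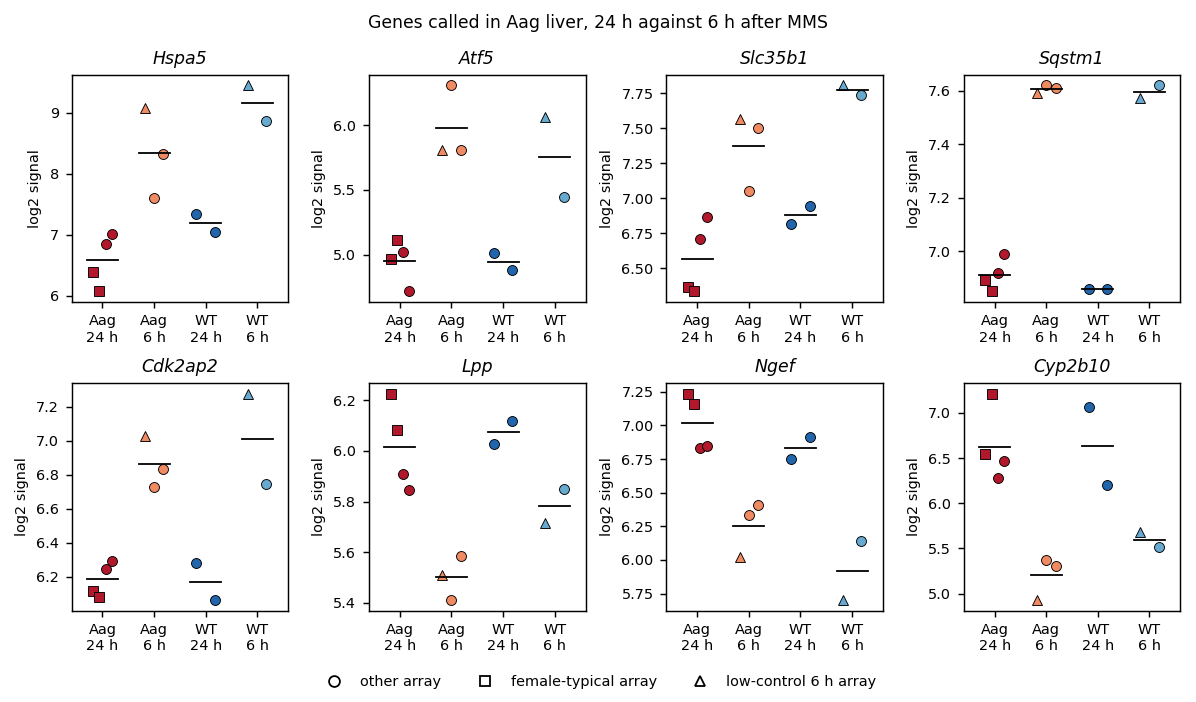
Log2 signal of the 8 called genes in each array of Aag 24 h, Aag 6 h, WT 24 h and WT 6 h, 1 point per array, with a line at the group mean. Squares mark the female-typical arrays and triangles the low-control 6 h arrays; in Aag liver the 24 h and 6 h arrays do not overlap for any of the 8 genes, as for Sqstm1 with 6.85 to 6.99 in Aag 24 h and 7.59 to 7.62 in Aag 6 h.

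The unfolded protein response list as a whole was lower at 24 h than at 6 h. Of its 25 genes 22 were on the array and 19 were bright enough to test, 18 lower and 1 higher at 24 h. Their median difference was -0.86, against 0.04 for all tested genes. Hspa5 was the one called, and 13 were lower at an unadjusted p under 0.05, 0 higher, where 4.1% of all genes were lower. The groups did not overlap for 14 members, all lower, where 5.19% of all genes were. The 3 members too dim to test were Hyou1, Calr and Edem1, with differences of 0.03, 0.00 and -0.37. Much of the size came from Aag 6 h replicate 1, in which most members had their highest value of the 7 arrays. Without the low-control arrays all 19 members were lower, with a median of -0.46 and 8 at an unadjusted p under 0.05, where 2.33% of all genes were lower at that level. Without the female-typical arrays the median was -0.67, with 7 members at that level, where 1.33% of all genes were. Without both it was -0.37, with 4 members, where 1.33% of all genes were lower at that level.

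Among the chaperones and their partners, Manf, a secreted and calcium-sensitive folding factor of the endoplasmic reticulum, was 5.81, 6.00, 6.57 and 6.72 in Aag 24 h and 8.74, 6.84 and 7.74 in Aag 6 h. The groups did not overlap, and the difference was -1.50 (SE 0.35, adjusted p = 0.101). Dnajb9, a co-chaperone that helps return IRE1 to its resting state, was 3.32, 3.41, 4.60 and 4.37 in Aag 24 h and 6.35, 5.35 and 6.03 in Aag 6 h. It had the largest difference of the list, -1.99 (SE 0.50, adjusted p = 0.144), and still -1.77 without the low-control arrays, and its second probe set gave -1.35. Hsp90b1, the HSP90 of the endoplasmic reticulum, was 8.08, 7.83, 7.91 and 7.96 in Aag 24 h and 9.19, 8.03 and 8.58 in Aag 6 h, where replicate 2 lay within the 24 h range. Its difference was -0.65 (SE 0.20, adjusted p = 0.307) and -0.36 without the low-control arrays. The co-chaperones Dnajb11 and Dnajc3 differed by -1.13 and -1.0, and by -0.60 and -0.41 without those arrays. Creld2, a secreted folding factor, was 3.75, 3.79, 3.90 and 4.02 in Aag 24 h and 6.19, 4.23 and 4.66 in Aag 6 h. The 6 h replicate 1 alone lay far from the rest, and the difference of -1.16 (SE 0.33, adjusted p = 0.250) became -0.58 without the low-control arrays.

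Disulfide isomerases and oxidases differed less evenly. Pdia4 was 6.24, 6.42, 6.32 and 6.22 in Aag 24 h and 7.29, 6.56 and 6.96 in Aag 6 h, a difference of -0.64 (SE 0.17, adjusted p = 0.179) without overlap. Pdia6 differed by -0.92 and Pdia3 by -0.55, and the oxidase that recharges them differed by -1.05 for Ero1b and by -0.13 for Ero1a. Genes of the export and degradation of misfolded proteins differed by -0.86 for Sel1l, -0.42 for Herpud1, -0.32 for Derl1 and -0.32 for Derl2. The response factors themselves differed by -0.99 for Xbp1 and -0.41 for Atf6. Canx, a membrane-bound lectin chaperone, was 6.33 to 6.54 in Aag 24 h and 6.19 to 6.47 in Aag 6 h, a difference of 0.06 (adjusted p = 0.920). None of these 12 passed the test. The printed windows of Canx and Hspa5 both hold the motif, with differences of 0.06 and -1.76.

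**Figure D2:**
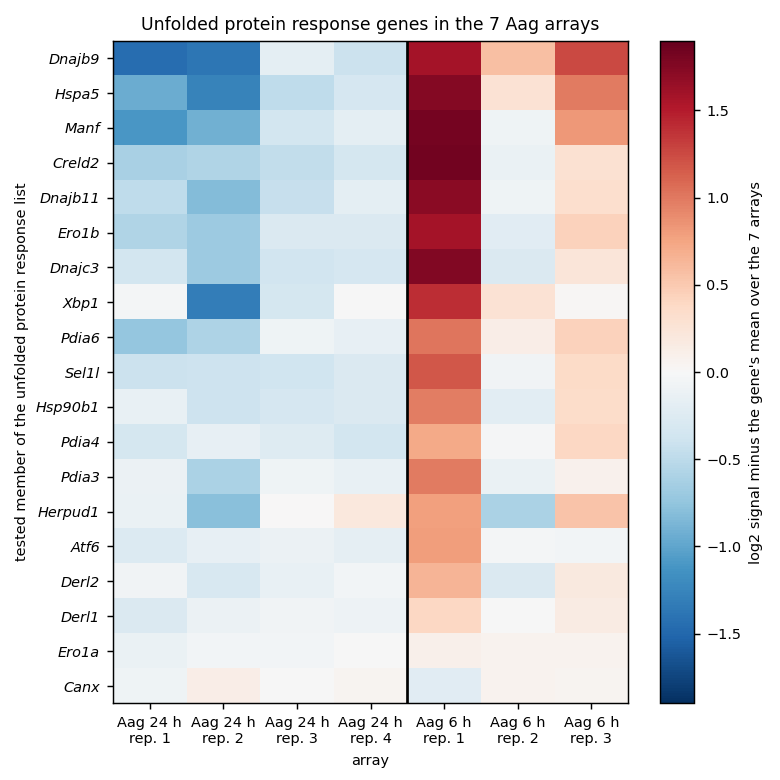
Each cell gives the log2 signal of 1 unfolded protein response gene (rows) in 1 of the 7 arrays (columns, Aag 24 h left of the line and Aag 6 h right of it) minus the mean of that gene over the 7 arrays. Most rows are highest in Aag 6 h replicate 1, and Dnajb9, Hspa5 and Manf are lowest in Aag 24 h replicates 1 and 2, for Hspa5 at 6.39 and 6.07.

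In Aag liver the median level of the 19 tested members, taken over group means, was 6.04 before treatment, then 6.17 (6 h), 6.10 (12 h), 5.62 (24 h) and 5.53 (48 h). The same medians in WT liver were 5.65, 6.57, 6.23, 5.77 and 5.68. Differences from untreated liver were not tested here, and the hybridization controls of 5 of the 7 untreated arrays, 10.25 to 11.65, lay above those of every treated array, while 2 Aag untreated arrays were at 8.17 and 8.09.

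**Figure D3:**
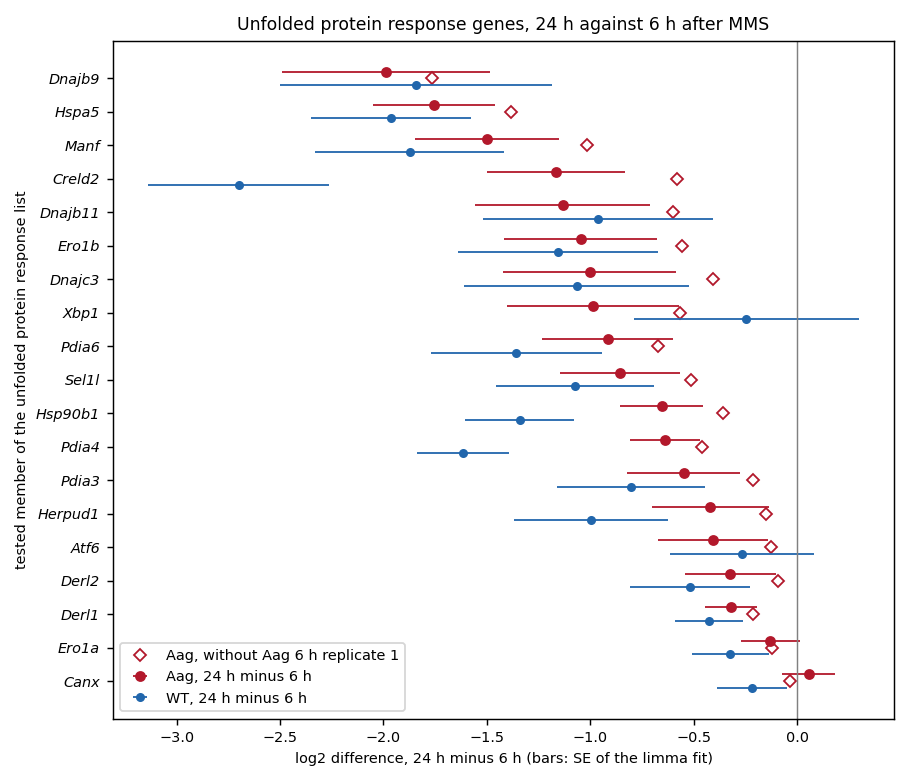
Log2 difference of 24 h minus 6 h for the 19 tested unfolded protein response genes in Aag liver (filled red, with SE), in Aag liver without the low-control arrays (open diamonds) and in WT liver (blue, with SE). Of the 19, 18 lie below 0 in Aag liver and 19 in WT liver, and the open diamonds lie nearer 0, with a median of -0.46 against -0.86.

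The other stress lists differed less. In the integrated stress response, in which ATF4 raises amino acid supply and tRNA charging, Atf5 was the single call among 16 tested members, with 9 lower, 7 higher and a median of -0.05. Atf4 itself was 7.44, 7.39, 7.29 and 7.37 in Aag 24 h and 7.61, 7.65 and 7.69 in Aag 6 h, without overlap, at -0.27 (SE 0.12, adjusted p = 0.669). The aminoacyl-tRNA synthetases Aars, Gars and Sars differed by -0.21, -0.30 and -0.13, and Slc3a2, the shared chain of amino acid exchangers, by -0.15. The ATF4 element (TGATG, 1 base of any kind and AA) lay in 28% of the 25 upstream windows of this list and in 3.45% of all windows. Of 20 tested heat shock proteins 15 were lower and 5 higher, with a median of -0.27, 0 called and 4 lower at an unadjusted p under 0.05. Of all genes 4.1% were lower at that level. Bag3, a co-chaperone of selective autophagy that works with HSP70, was 4.44, 4.26, 4.42 and 4.66 in Aag 24 h and 5.32, 5.0 and 4.90 in Aag 6 h, at -0.63 (SE 0.16, adjusted p = 0.131). Its partner Hspb8 differed by -0.43 (adjusted p = 0.423), with an overlap-free range of 7.19 to 7.38 in Aag 24 h and 7.41 to 8.12 in Aag 6 h, and a dimmer probe set of Hspb8 gave 0.01. Hsp90aa1, the inducible cytosolic HSP90, differed by -0.66 (adjusted p = 0.791), with 0.18 in a dim second probe set, and Hspa4, Chordc1 and Serpinh1 differed by -0.53, -0.39 and -0.26. The other probe sets gave -0.01 to -0.38 for Hspa4 and -0.11 for Chordc1. Without the low-control arrays the list median was -0.08, and in WT liver it was 0.01. The heat shock element core (GAA, 2 bases of any kind and TTC) lay in 30.4% of the 23 windows of the list and in 6.69% of all.

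The proteasome list gave 33 tested subunits, 30 lower and 3 higher at 24 h, with a median of -0.24, 0 called and 4 lower at an unadjusted p under 0.05. Of all genes 4.1% were lower at that level. The regulatory-particle subunit Psmd7 was 6.23, 5.97, 6.08 and 6.21 in Aag 24 h and 6.80, 6.54 and 6.51 in Aag 6 h, without overlap, at -0.49 (SE 0.14, adjusted p = 0.206). Psmd11 differed by -0.42 (SE 0.13, adjusted p = 0.282), with a dimmer probe set at 0.06, and Psmd4, Psmd12, Psmd6 and the ATPase Psmc1 by -0.24, -0.43, -0.49 and -0.39. All 6 of these were highest in Aag 6 h replicate 1, for Psmd6 6.77 against 5.77 and 5.86 in the other 6 h arrays. Without the low-control arrays 23 of the 33 were lower, with a median of -0.09, and 16 of 33 without the female-typical arrays as well.

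NRF2 raises genes against oxidants and electrophiles once KEAP1 releases it. Of 17 tested, 12 were lower and 5 higher, with a median of -0.21, and 0 were called. At an unadjusted p under 0.05, 7 of these targets were lower and 2 higher, where 4.1% of all genes were lower and 2.24% higher. Both subunits of the enzyme that starts glutathione synthesis were lower without overlap. Gclc, its catalytic subunit, was 5.64, 5.71, 5.79 and 5.82 in Aag 24 h and 6.35, 6.43 and 6.32 in Aag 6 h, at -0.62 (SE 0.18, adjusted p = 0.273), and Gclm, its modifier, was at -0.30 (adjusted p = 0.666). Aldehyde oxidase Aox1 and glutathione reductase Gsr were at -0.65 (adjusted p = 0.419) and -0.27 (adjusted p = 0.613), also without overlap. The higher members included 2 glutathione transferases. Gsta2 was 7.10, 7.79, 7.09 and 7.39 in Aag 24 h and 6.92, 6.72 and 6.77 in Aag 6 h, at 0.54 (SE 0.17, adjusted p = 0.307), and Gstm1 was at 0.32 (adjusted p = 0.589), both without overlap. Hmox1, the haem-degrading enzyme, was 6.51 to 6.60 in Aag 24 h and 6.44 to 7.09 in Aag 6 h, at -0.17 (adjusted p = 0.898). The list median was -0.21 without the low-control arrays, -0.16 without the female-typical arrays, -0.23 without both and -0.20 in WT liver. The antioxidant response element (TGAC, 3 bases of any kind and GC) lay in 25% of the 28 windows of the list and in 10.2% of all. The interferon list was near this share, with 24.1% of its 29 windows.

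Metallothioneins, which bind zinc and copper, were scattered within the groups. Mt1 was 10.12, 10.32, 9.82 and 8.21 in Aag 24 h and 10.40, 11.58 and 9.63 in Aag 6 h, at -0.92 (SE 0.57, adjusted p = 0.898). Mt2 was 9.28, 9.48, 8.85 and 7.15 in Aag 24 h and 8.32, 10.67 and 7.74 in Aag 6 h, at -0.22 (SE 0.59, adjusted p = 0.935). The groups overlapped for both, the lowest 24 h array being replicate 4 and the highest 6 h array replicate 2. Their transcription factor Mtf1 differed by -0.01, and the 3 tested genes of the list, all lower, had a median of -0.22, which was -0.91 without the female-typical arrays, -0.52 without the low-control arrays and -1.21 without both. The metal response element core (TGC, 1 base of any kind, C, 1 base of any kind, C) lay in 75% of the 4 windows of the list and in 44.4% of all. It also lay in 87.5% of the 8 windows of the urea cycle list.

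Of 25 tested acute phase genes, liver-made plasma proteins of inflammation, 16 were lower and 9 higher, with a median of -0.06, 0 called and 3 lower at an unadjusted p under 0.05. Of all genes 4.1% were lower at that level. Without the low-control arrays the median was -0.14, with 6 lower at that level (2.33% of all genes). It was -0.05 with 1 lower without the female-typical arrays, and -0.18 with 5 lower without both (1.33% of all genes in each fit). In WT liver 21 were lower and 4 higher, with a median of -0.47. There 3 were called, all lower, and 8 were lower and 1 higher at an unadjusted p under 0.05, where 2.42% of all genes were lower. Lrg1, a leucine-rich glycoprotein, was 7.88, 7.49, 8.81 and 8.72 in Aag 24 h and 9.14, 9.77 and 8.85 in Aag 6 h, at -1.03 (SE 0.31, adjusted p = 0.282). Its lowest values were those of the female-typical arrays, and without them the difference was -0.49. The fibrinogen chains Fgg and Fgb were at -0.54 (adjusted p = 0.419) and -0.44 (adjusted p = 0.807), and the protease inhibitor Serpina3n at -0.62 (adjusted p = 0.507). Lbp, which carries bacterial lipopolysaccharide, and Pigr, the receptor that moves IgA into bile, were at -0.29 and 0.26. Of 8 tested cytokine and chemokine genes 3 were lower and 5 higher, with a median of 0.05. The neutrophil chemokine Cxcl1 was 4.67, 4.36, 4.76 and 4.64 in Aag 24 h and 5.47, 9.27 and 4.91 in Aag 6 h, at -1.94 (SE 0.65, adjusted p = 0.419). Every 6 h array of Cxcl1 lay above every 24 h array, and its second probe set gave -1.54. The single array Aag 6 h replicate 2, also the highest for Mt1 and Mt2, carried most of the difference. In WT liver Cxcl1 was 4.87 and 4.49 at 24 h and 8.69 and 6.02 at 6 h, and was not called. Nfkbia, Ccl5, Tnf, Cd14 and Vcam1 lay between 0.03 and 0.14, and dimmer probe sets of Nfkbia (-0.16) and Vcam1 (-0.17 and -0.18) were of the other sign.

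Of 15 tested interferon-response genes 13 were lower and 2 higher, with a median of -0.06, 0 called and 3 lower at an unadjusted p under 0.05. Of all genes 4.1% were lower at that level. Igtp, an interferon-induced GTPase that acts on vacuoles holding microbes, was 3.63, 3.80, 3.45 and 3.46 in Aag 24 h and 4.44, 4.22 and 4.22 in Aag 6 h, without overlap. Its difference was -0.71 (SE 0.16, adjusted p = 0.101), and -0.76 without the arrays that stood apart. Isg15, a ubiquitin-like modifier, and Usp18, which removes it, were at -0.32 and -0.30, Ifi35 and Iigp1 at -0.39 and -0.47, and the immunoproteasome subunit Psmb10 at 0.25. Macrophage markers ran lower beside them, 12 of 15 lower and 3 higher with a median of -0.26, 0 called and 2 lower at an unadjusted p under 0.05. Their summed level was 9.34 to 9.66 in Aag 24 h and 9.64 to 10.04 in Aag 6 h, and -0.29 was the median without the arrays that stood apart. The complement chains C1qb, C1qc and C1qa were at -0.56, -0.40 and -0.35, Cd5l at -0.69, Lyz2 at -0.56 and Ctss at -0.49, while dimmer probe sets gave 0.09 for C1qb and -0.10 for Lyz2. The WT median was -0.01 for macrophage markers (9 lower, 6 higher) and 0.04 for interferon-response genes (6 lower, 9 higher), with 0 called in either list. In whole liver, fewer cells of a type and less RNA per cell cannot be told apart, and the part of macrophage number in the interferon genes was not tested.

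Of 26 tested genes of PPARalpha and fatty acid oxidation 24 were higher and 2 lower at 24 h, with a median of 0.18, 0 called and 5 higher at an unadjusted p under 0.05, where 2.24% of all genes were. The groups did not overlap for 6 of them, all higher, where 5.07% of all genes were. Vnn1, a pantetheinase and sensitive PPARalpha target, was 5.12, 5.64, 5.38 and 4.86 in Aag 24 h and 4.14, 3.48 and 3.88 in Aag 6 h, at 1.42 (SE 0.49, adjusted p = 0.419). Aldh3a2, the fatty aldehyde dehydrogenase, was 7.13, 7.28, 6.56 and 6.72 in Aag 24 h and 6.27, 5.89 and 6.29 in Aag 6 h, at 0.77 (SE 0.26, adjusted p = 0.419). The peroxisomal thiolases Acaa1a and Acaa1b were at 0.65 and 0.64, the mitochondrial enoyl-CoA isomerase Eci1 at 0.40 and Pdk4, which spares glucose, at 0.30, and the groups did not overlap for Acaa1a, Acaa1b and Pdk4. The list median was 0.24 without the low-control arrays, 0.24 without the female-typical arrays, 0.28 without both and 0.24 in WT liver.

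Genes of the methionine cycle and of methyl transfer lay on both sides, 6 lower and 8 higher of 14 tested, with a median of 0.06 and 0 called. At an unadjusted p under 0.05, 2 were lower and 4 higher, where 4.1% of all genes were lower and 2.24% higher. Gamt, which methylates guanidinoacetate to creatine, was 8.30, 8.37, 8.25 and 8.21 in Aag 24 h and 7.76, 7.75 and 7.82 in Aag 6 h. The groups did not overlap, and the difference was 0.51 (SE 0.12, adjusted p = 0.101), 0.36 in a second probe set, and 0.45 without the arrays that stood apart. Sardh, sarcosine dehydrogenase, was 7.32, 7.68, 7.42 and 7.40 in Aag 24 h and 6.83, 6.68 and 6.67 in Aag 6 h, at 0.73 (SE 0.21, adjusted p = 0.250). Ahcy, which clears S-adenosylhomocysteine, was at 0.42 (adjusted p = 0.250) and Pemt, which makes phosphatidylcholine, at 0.26 (adjusted p = 0.648), both without overlap. In the other direction, Bhmt, which remethylates homocysteine with betaine, was 9.33, 8.81, 9.39 and 9.33 in Aag 24 h and 9.89, 9.71 and 9.82 in Aag 6 h, at -0.59 (SE 0.20, adjusted p = 0.419). Gnmt, the main consumer of surplus methyl groups, was at -0.36 (adjusted p = 0.589). A dimmer probe set of Bhmt gave -0.10.

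Beside Cyp2b10, the other 15 tested P450s and flavin monooxygenases were not called. Of all 16, 10 were higher and 6 lower, and the median was 0.10. Cyp2c38 was 9.64, 9.32, 9.05 and 8.83 in Aag 24 h and 8.61, 8.71 and 8.78 in Aag 6 h, at 0.52 (SE 0.19, adjusted p = 0.512) and 0.25 without the female-typical arrays. Cyp2d26, Cyp2e1 and Cyp2c29 were at 0.23, 0.23 and 0.26, and Cyp2d10 at -0.44. Cyp7a1, which sets the rate of bile acid synthesis from cholesterol, was 5.12, 5.27, 5.91 and 5.67 in Aag 24 h and 5.38, 5.30 and 5.39 in Aag 6 h, at 0.14 (SE 0.28, adjusted p = 0.914).

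Clock genes gave 13 tested members, 9 higher and 4 lower, the median being 0.17, 0 called and 2 higher at an unadjusted p under 0.05. Of all genes 2.24% were higher at that level. Usp2, a deubiquitinase with a daily rhythm in liver, was 6.99, 6.71, 7.08 and 7.13 in Aag 24 h and 6.31, 5.72 and 6.23 in Aag 6 h, at 0.89 (SE 0.27, adjusted p = 0.282). Noct, a rhythmic phosphatase of NADPH, was 7.55, 6.69, 6.75 and 6.79 in Aag 24 h and 6.19, 4.90 and 6.43 in Aag 6 h, at 1.11 (SE 0.39, adjusted p = 0.435). The groups did not overlap for either. Dimmer probe sets gave 0.43 for Usp2 and 0.01 and 0.15 for Noct. The clock output factor Dbp was 5.79 to 5.93 in Aag 24 h and 4.93 to 5.58 in Aag 6 h, also without overlap, at 0.57 (SE 0.48, adjusted p = 0.898), and its relative Tef was at 0.36. The period genes Per1 and Per3 were at 0.22 and 0.17, the repressor Cry1 at 0.28, with -0.03 and 0.04 in 2 dim probe sets, and the repressors Nr1d1 and Nr1d2 at -0.28 and -0.19. Arntl (BMAL1) and Per2 were too dim to test, at -0.04 and 0.11. The E-box CACGTG, bound by BMAL1 and CLOCK, lay in 23.1% of the 26 windows of the list and in 6.02% of all. It was not particular to this list, with 26.7% of the 30 windows of the immediate early genes and 37.5% of the 8 of the urea cycle list. Livers taken 6 h and 24 h after one injection hour are taken at different hours of the day, the labels give no clock time, and time after MMS and time of day cannot be told apart here.

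**Figure D4:**
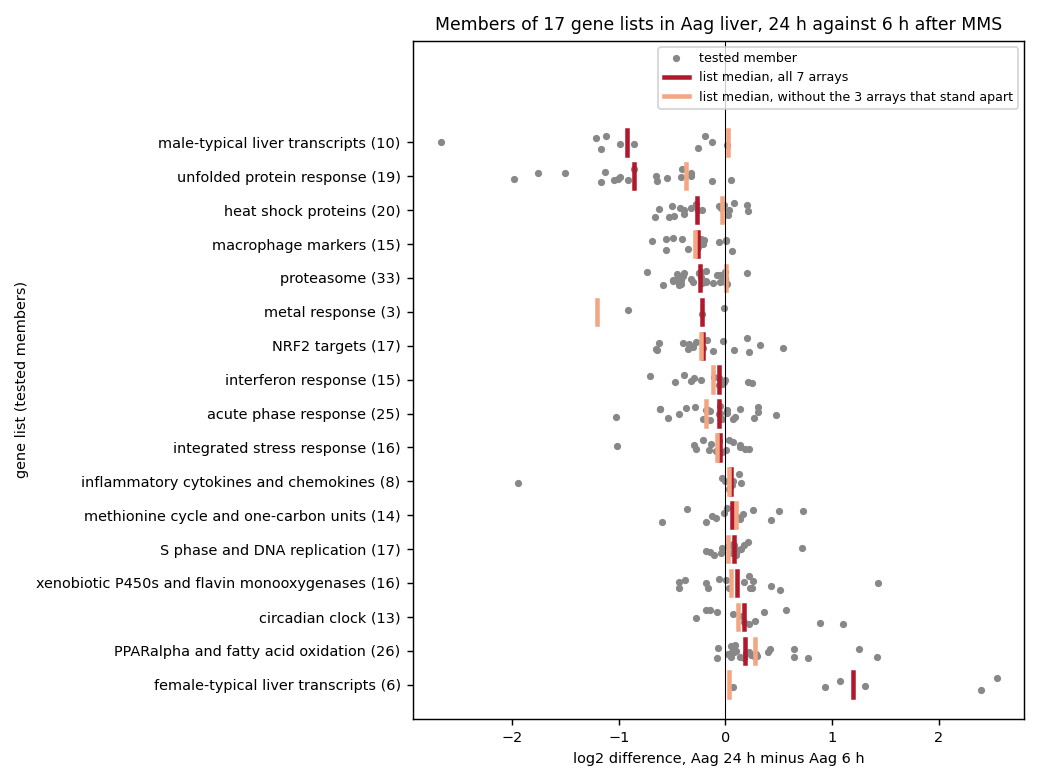
Log2 difference of Aag 24 h minus Aag 6 h for each tested member of 17 gene lists (grey points, spread vertically for legibility), with list medians over all 7 arrays (red) and without Aag 24 h replicates 1 and 2 and Aag 6 h replicate 1 (light orange); the number of tested members is in brackets. The unfolded protein response median goes to -0.37 without those arrays, and the NRF2 (-0.23) and PPARalpha (0.28) medians stay on their side of 0. The sex-typical lists, whose members Cyp2b9 and Hsd3b5 defined the female-typical arrays, go to about 0.

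Genes of the DNA damage response differed little between Aag 24 h and Aag 6 h. Both groups had received MMS, so a response of equal size at both times would not be seen here. Of 14 tested p53 targets 6 were lower and 8 higher, with a median of 0.02, 0 called and 0 at an unadjusted p under 0.05. Cdkn1a, the p53-induced cell-cycle inhibitor, was 6.29, 6.52, 6.33 and 6.27 in Aag 24 h and 5.90, 6.39 and 6.37 in Aag 6 h, at 0.13 (SE 0.16, adjusted p = 0.898). Mdm2, which degrades p53, was 3.94 to 4.05 in Aag 24 h and 4.14 to 4.58 in Aag 6 h, without overlap, at -0.29 (SE 0.17, adjusted p = 0.886). Ccng1 and the alkyltransferase Mgmt were too dim to test, at -0.21 and 0.14, and no probe set with a single symbol named Bax or Gdf15. Base excision and alkylation repair had a median of 0.00 over 10 tested genes, 4 lower and 6 higher, with none at an unadjusted p under 0.05. In S phase and DNA replication, 12 of 17 were higher and 5 lower, where 3213 of all 5487 genes were higher. The median was 0.08, and 0.01 without the low-control arrays. The thymidine salvage enzyme Tk1 was 7.42, 7.72, 7.27 and 7.25 in Aag 24 h and 6.48, 6.81 and 6.79 in Aag 6 h, without overlap, at 0.72 (SE 0.17, adjusted p = 0.103). A dimmer probe set of Tk1 gave 0.07, and the replication genes Rrm1, Lig1, Pcna, Mcm7 and Rpa1 lay between -0.18 and 0.21. Mitosis genes had a median of 0.05 over 14 tested, 5 lower and 9 higher, and the immediate early genes 0.03 over 17, 7 lower and 10 higher, all with 0 at an unadjusted p under 0.05. Myc was near the lower end of the scale, at 2.72, 1.58, 1.69 and 1.66 in Aag 24 h and 1.64, 1.56 and 1.61 in Aag 6 h, and was not tested.

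The remaining pathway lists had medians between -0.08 and 0.13 and held 0 called genes. The medians were 0.03 for negative acute phase proteins (8 tested), 0.05 for glucocorticoid receptor targets (16), 0.13 for glucose output and fasting (9) and 0.01 for cholesterol synthesis and uptake (17). They were -0.03 for fatty acid synthesis (14), 0.02 for bile acid synthesis and transport (13), -0.08 for ribosome biogenesis (19), 0.08 for cytosolic ribosomal proteins (27) and -0.01 for actin, tubulin and cell shape (22). For coagulation factors (15), iron and haem handling (13), urea cycle and nitrogen (8) and the growth hormone axis (12) they were 0.05, 0.07, 0.07 and 0.06. Among glucocorticoid and fasting genes, Fkbp5 was at -0.10 (SE 0.18, adjusted p = 0.913), Tat at 0.17 (SE 0.24, adjusted p = 0.905) and Igfbp1 at -0.31 (SE 0.69, adjusted p = 0.920), with 0.11 in another Igfbp1 probe set. Without the low-control arrays several of these small medians had the other sign, -0.06 for glucose output, -0.01 for iron and haem handling, 0.07 for fatty acid synthesis and 0.05 for ribosome biogenesis.

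Sex-typical transcripts divided Aag 24 h within itself. Of 12 female-typical transcripts on the array 6 were tested, and all were higher, with a median of 1.19. Of the 10 male-typical ones tested 9 were lower, with a median of -0.92. Without the female-typical arrays these medians were 0.09 and -0.05. Neither result is separate evidence, since Cyp2b9 and Hsd3b5, members of these lists, defined the female-typical arrays. The choice of tested genes depended on those arrays too, as Cyp2b13 exceeded the array median only in them. Hsd3b5, a male-typical steroid dehydrogenase, was 3.50, 2.94, 7.29 and 7.56 in Aag 24 h and 8.65, 7.29 and 8.03 in Aag 6 h. The sulfotransferase Sult2a2 was 5.51, 7.60, 1.97 and 1.92 in Aag 24 h and 1.70, 1.98 and 1.88 in Aag 6 h. Replicates 1 and 2 thus differed from replicates 3 and 4 for both genes, and replicates 3 and 4 lay at the level of Aag 6 h for Sult2a2. The steroid hydroxylase Cyp17a1 and the sulfotransferase Sult3a1 ran the same way, at 0.94 and 1.31, as did Cyp2b13 at 1.07, while Ntrk2 was at 0.07. The Y-linked Eif2s3y was 2.53, 2.47, 3.85 and 3.83 in Aag 24 h and 5.42, 3.66 and 3.93 in Aag 6 h. The glutathione transferase Gstp1 was at -1.21, Cyp4a12b at -1.12, Keg1 at -0.99 and the major urinary protein Mup3 at -0.25. None of these genes was called, and what the labels leave out about sex was not tested further.

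Markers of other cells that whole liver holds gave 0 called genes and lay near the median of all genes. MHC class II (9 tested) had a median of 0.03 and a summed level of 8.90 to 9.03 in Aag 24 h and 8.70 to 9.14 in Aag 6 h. Neutrophil markers (5 tested) had a median of 0.11, with 8.42 to 8.53 in Aag 24 h and 8.09 to 8.65 in Aag 6 h. Lymphocyte markers (9 tested) had a median of 0.11, with 8.38 to 8.43 in Aag 24 h and 8.05 to 8.44 in Aag 6 h. Red cell markers (8 tested) had a median of 0.14, with 8.71 to 9.39 in Aag 24 h and 8.81 to 9.04 in Aag 6 h. All of these ranges overlapped between the groups. Stellate cell and matrix markers (17 tested) had a median of 0.03, endothelial markers (11) 0.11 and bile duct markers (2) 0.07. Bile duct markers had a summed level of 6.43 to 6.73 in Aag 24 h and 6.27 to 6.47 in Aag 6 h. The direction of several of these lists rested on Aag 6 h replicate 1. Without the low-control arrays all 5 neutrophil markers were lower, with a median of -0.08, and the medians were -0.04 for lymphocyte markers (6 of 9 lower), -0.10 for MHC class II (7 of 9 lower) and -0.08 for stellate cell and matrix markers (14 of 17 lower). The median of all genes was -0.01 in that fit.

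In WT liver over the same interval, 27 genes were called (0.492% of those tested), 14 higher and 13 lower. Of the 8 genes called in Aag liver, 5 were among them with the same sign, which is 62.5% of the Aag calls and 18.5% of the WT calls. These were Hspa5, Slc35b1, Sqstm1 and Cdk2ap2, all lower, and Ngef, higher. Hspa5 was 7.35 and 7.05 in WT 24 h and 9.46 and 8.87 in WT 6 h, a fall of 1.97 (SE 0.39, adjusted p = 0.0167). Sqstm1 was 6.86 and 6.86 in WT 24 h and 7.57 and 7.62 in WT 6 h, a fall of 0.74 (SE 0.16, adjusted p = 0.0279), so the levels of both genotypes lay on top of each other at both times. Slc35b1 fell by 0.89 and Cdk2ap2 by 0.84, and Ngef rose by 0.91. Atf5 (-0.81, adjusted p = 0.235), Cyp2b10 (1.04, adjusted p = 0.285) and Lpp (0.29, adjusted p = 0.638) had the same sign in WT liver and were not called. Of the 27 WT calls, 25 had the same sign in Aag liver, 19 of them at an unadjusted p under 0.05.

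Unfolded protein response genes were lower in WT liver too. All 19 tested members were lower at 24 h, with a median of -1.07, 4 called and 12 at an unadjusted p under 0.05, where 2.42% of all genes were. The 4 called were Hspa5, Hsp90b1, Pdia4 and Creld2. Pdia4 differed by -0.64 in Aag liver and -1.61 in WT liver, Creld2 by -1.16 in Aag liver and -2.70 in WT liver, and Hsp90b1 by -0.65 in Aag liver and -1.34 in WT liver. The smaller Aag values were tested as an interaction, the Aag difference minus the WT difference, which was 0.98 for Pdia4 (SE 0.28) and 1.54 for Creld2 (SE 0.55), each with adjusted p = 0.998. Both genotypes have a low-control array at 6 h, and their highest 6 h values of Creld2, 6.19 in Aag and 7.55 in WT, came from these arrays. The WT 6 h arrays correlated at 0.837 with each other. Dnajc3 was 7.08 and 4.61 in WT 6 h replicates 1 and 2, against 4.85 and 4.71 in WT 24 h. Creld2 in WT 6 h replicate 2, at 5.99, still lay above WT 24 h, at 4.34 and 3.80. Fits without WT 6 h replicate 1 were run over all genes, but they leave a single WT 6 h array. How far the WT list rested on replicate 1 was not read from them.

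No gene was called by limma in the interaction over all genes (0 of 5487, 0%), with 114 at an unadjusted p under 0.05. This does not show that the genotypes were alike over the interval. WT liver had 2 arrays at 24 h and 2 at 6 h, and the 6 h pair correlated at only 0.837. Among the genes named by rule the lowest interaction p was that of Cyp7a1, 0.14 in Aag liver and 2.33 (SE 0.36, adjusted p = 0.00169) in WT liver, an interaction of -2.19 (SE 0.45, adjusted p = 0.186). It was 5.64 and 6.04 in WT 24 h and 3.38 and 3.64 in WT 6 h, so the WT 6 h arrays lay below all 7 Aag arrays. Bhmt differed in sign, -0.59 in Aag liver and 0.66 in WT liver (interaction -1.25, SE 0.33, adjusted p = 0.854). Among the acute phase genes, Fgg and Serpina3n fell in WT liver by 1.28 (adjusted p = 0.0128) and 1.51 (adjusted p = 0.0167). In Aag liver they differed by -0.54 and -0.62, with interactions of 0.74 and 0.90 (adjusted p = 0.998 for each). Gamt rose in WT liver by 1.10 (adjusted p = 0.000405) and Sardh by 1.39 (adjusted p = 0.0167), in the direction they had in Aag liver.

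**Figure D5:**
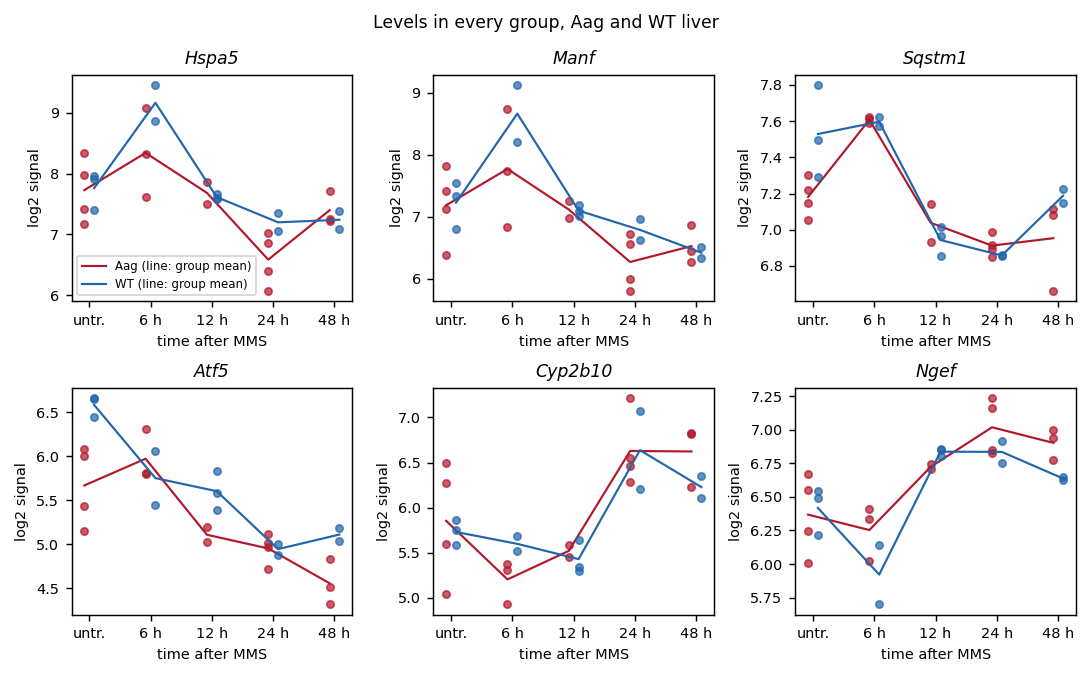
Log2 signal of 6 genes in every array of Aag (red) and WT (blue) liver, untreated and at 6, 12, 24 and 48 h after MMS (evenly spaced, not to scale), with lines through group means. The group means of Hspa5 and Manf are highest at 6 h in both genotypes, Sqstm1 is already low at 12 h (7.14 and 6.93 in Aag), and Cyp2b10 in Aag liver is near its 6 h level at 12 h (5.46 and 5.58) and higher at 24 h.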

How the data were processed

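The authors deposited 1 value per probe set and array, taken here as log2 signals because the values ran from 0.689 to 13.16; the labels do not state the unit. No source used here gives the image reading, background handling, probe summary or scaling; these were not given. Quantile normalization was applied to 12422 of the 12488 probe sets (66 controls removed), since the medians of the arrays spanned 0.215 and the limit was 0.1. In the platform annotation 10855 probe sets had 1 symbol, 396 had several and 1237 had none. For each of 8251 genes the probe set with the highest mean was kept, and the 5487 genes that exceeded the median of 2 or more arrays were tested.

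limma 3.58.1 (R 4.3.3) fitted 1 mean per group over all 28 arrays, with 18 residual degrees of freedom, a trend of variance on mean, and p-values adjusted by Benjamini-Hochberg. Scripts were tested on simulated data. Figures were drawn with Python and matplotlib. The labels do not say that replicate numbers pair the samples, and the fit was unpaired. Correlations of deviations were 0.19, 0.40 and -0.19 for numbers 1, 2 and 3, and -0.39 to 0.24 for unlike numbers. With so few arrays these values cannot settle whether the numbers are a pairing. A summed level is the log2 of the sum of the unlogged signals of the genes of a list on the array.

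The members, the 42 gene lists (949 distinct genes, 737 on the array, 561 tested), the promoter motifs (12 searched, 7 reported) and the tests were chosen with earlier results of these data known. Named genes were called genes, the members of each described list with the lowest adjusted p (6 at most), and fixed genes (Mpg, Mt1, Mt2, Cdkn1a, Mdm2, Ccng1, Bax, Gdf15, Mgmt, Myc, Bmal1, Nr1d1, Nr1d2, Per1, Per2, Dbp, Cyp7a1, Fkbp5, Tat, Igfbp1, Hmox1). Other members of the unfolded protein response list, Alb and genes of the closing section were named after their values were seen. Female-typical arrays were those with deposited Cyp2b9 above Hsd3b5, and low-control 6 h arrays those with a control mean under 7, a limit set after seeing the data. Alternatives were the values as deposited, centring on medians, testing dim genes too, averaging the probe sets of a gene, array weights, the replicate block, the female-typical pattern as a term, leaving out arrays singly or by these patterns, smaller fits and no trend.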

Additional observations from a re-analysis of the deposited data

Results flagged for a closer look

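In Aag 24 h, 5 of 120 named genes had 1 array far from the other 3 by Dixon's test for 4 samples, which chance alone gives in about 5% of groups. Noct was 7.55 in replicate 1, against 6.69 to 6.79 in the others, and Myc was 2.72 in replicate 1, against 1.58 to 1.69. Mcm7 was 4.74 in replicate 1, against 4.80 to 4.81. Bhmt was 8.81 in replicate 2, against 9.33 to 9.39, and Ctss was 4.85 in replicate 3, against 4.58 to 4.61. Without these arrays the difference of Aag 24 h minus Aag 6 h was 0.90 for Noct (1.11 with it) and -0.45 for Bhmt (-0.59 with it).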

How the results depend on the processing

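The number of genes called in Aag liver (8) was 2 with the values as deposited, 0 with median centring, 23 with array weights (11 higher, 12 lower), 0 with the female-typical pattern as a term, 0 with all female-typical arrays left out, 0 in a fit of only the groups compared and 29 in a fit of the 4 Aag treated groups (15 higher, 14 lower). Leaving out single arrays gave 0 to 17. Without the low-control 6 h arrays it was 0, and without these and the female-typical arrays 0; both were chosen after seeing the data. Where limma called 0, 130 to 436 genes had an unadjusted p under 0.05. With the replicate number as a block 5 were called, and whether the numbers pair these samples is not known. In WT liver (27), the count was 12 as deposited, 11 with median centring, 0 with array weights (51 at an unadjusted p under 0.05), 0 in a fit of only the groups compared (93), 6 to 332 with single arrays left out and 907 without the low-control arrays. That last fit leaves a lone WT 6 h array, assumed to vary like the other groups. The interaction (0) gave 0 to 27 with single arrays left out, and 1 without low-control and female-typical arrays. Unfolded protein response members lower at an unadjusted p under 0.05 (13) numbered 7 without female-typical arrays, 8 without low-control arrays, 4 without both and 5 to 16 with single arrays left out. No called gene changed sign, which leaving out arrays could not have done, since the groups did not overlap for any of them. Of 2116 values of 106 named genes not called, 54 changed sign and 16 became called. The number of arrays, and the dim signal of genes such as Mpg, Myc and Arntl, limit what can be shown.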

Other observations

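Some genes outside the lists, named after their values were seen, had differences of the same sign in both genotypes; none of the 5 was called in Aag liver. Upp2, a liver uridine phosphorylase, differed by 1.22 in Aag liver (SE 0.28, limma adjusted p = 0.101) and rose by 2.85 in WT liver (adjusted p = 0.000405). Inmt, a methyltransferase of indole amines, differed by 0.98 in Aag liver (adjusted p = 0.0776) and rose by 1.34 in WT liver (adjusted p = 0.0259). The glutathione transferase Gstt2 differed by 1.13 in Aag liver (adjusted p = 0.235) and 1.07 in WT liver (adjusted p = 0.409). Arfgap3, which acts on vesicles of the Golgi, differed by -0.41 in Aag liver (adjusted p = 0.548) and fell by 0.93 in WT liver (adjusted p = 0.0327). Ctse, an aspartic protease, differed by -1.48 in Aag liver (adjusted p = 0.164) and -0.97 in WT liver (adjusted p = 0.718).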
